A study of Mus musculus with 72 samples.

Results

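The kidney libraries of this mouse study measured DNA methylation of promoter CpG islands and of a LacZ reporter in tm1a knockouts and wild type. They were chosen by the tissue in their titles and number 12 of the 72 libraries: 4 of the knockout island, 4 of the wild-type island and 4 of LacZ in the knockout. They come from 4 of the 6 lines, labelled Arap (matched below to Arap1), Dstn, Lyplal1 and Ninj1. All mice were C57BL/6N and 7 weeks old. Each knockout is labelled as homozygous for its line (Dstn -/-, for example) and carries the Knockout Mouse Project tm1a allele, which places LacZ under the gene's own promoter and also holds a neo selection cassette. The island and LacZ libraries of a knockout were amplified from the same genomic DNA, while wild type has no LacZ library. There was 1 library per line and amplicon in each genotype, and the labels do not say whether it came from 1 animal or a pool, nor whether the tissues of a line share animals. A difference within a line therefore has no replicate check. These amplicons hold no marker of a kidney cell type, so the tissue label could not be checked against markers. DNA of whole kidney mixes many cell types, and a partial level in all cells cannot be told apart from a high level in some of them.

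A CpG island is a stretch of DNA rich in CG dinucleotides, and many gene promoters lie in one. Such islands are usually unmethylated in normal tissue, and dense methylation of a promoter island goes with silencing of the gene. A LacZ reporter inserted under a native promoter can itself become methylated, since its bacterial sequence is rich in CG. Arap1 is a GTPase-activating protein, destrin (Dstn) depolymerizes actin filaments, Lyplal1 is a lysophospholipase-like protein and Ninj1 is a membrane protein first described in injured nerve.

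A level below is the unweighted mean over CpG sites of the percentage of methylated calls, at sites with at least 10 reads in both libraries of a pair. The island libraries held 80680 to 3599481 methylation calls, with a median coverage per site of 2312.5 to 120951. For LacZ there were 494076 to 2748620 calls per library and 3822 to 16039 reads at the median site. The 95% Wilson interval of a pooled level reached at most ±0.249 percentage points in island libraries and ±0.137 in LacZ libraries. Intervals given here cover counting error alone: amplicon reads lack molecular identifiers and may copy the same molecule. The knockout Lyplal1 island was the shallowest library, with 80680 calls against 886350 in its wild type.

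The sequences of 3 of the promoters are shown because they place the measured CpG sites relative to the gene start. The spacing of the covered mm9 sites was matched to the CG dinucleotides of RefSeq promoter windows (GRCm38.p6), each from 250 bases before to 50 after the gene start. In Arap1 all 21 covered sites inside the window fell on a CG, in Dstn 31 of 31 and in Lyplal1 12 of 12. The next best placement matched 7 of 24, 7 of 25 and 5 of 12. Ninj1 matched 8 of 29 at best, so its sites were not placed. The windows are chr7:101347819-101348118 (plus strand) for Arap1, chr2:143915081-143915380 (plus strand) for Dstn and chr1:186117261-186117560 (minus strand) for Lyplal1. They are written 5′ to 3′ along the gene, with capitals for the CGs measured in kidney.
Arap1: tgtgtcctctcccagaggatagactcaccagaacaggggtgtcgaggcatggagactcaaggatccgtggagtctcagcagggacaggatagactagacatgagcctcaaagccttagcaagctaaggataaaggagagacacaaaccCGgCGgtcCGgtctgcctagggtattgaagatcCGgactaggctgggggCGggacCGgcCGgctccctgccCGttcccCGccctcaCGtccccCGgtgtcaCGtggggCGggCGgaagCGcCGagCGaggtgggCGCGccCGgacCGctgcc
Dstn: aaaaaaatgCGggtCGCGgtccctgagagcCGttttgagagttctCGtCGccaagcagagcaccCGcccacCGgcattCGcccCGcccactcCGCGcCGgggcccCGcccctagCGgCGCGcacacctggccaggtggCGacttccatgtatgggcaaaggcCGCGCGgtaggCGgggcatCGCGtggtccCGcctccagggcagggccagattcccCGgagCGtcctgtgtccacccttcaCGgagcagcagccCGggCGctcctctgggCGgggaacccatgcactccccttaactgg
Lyplal1: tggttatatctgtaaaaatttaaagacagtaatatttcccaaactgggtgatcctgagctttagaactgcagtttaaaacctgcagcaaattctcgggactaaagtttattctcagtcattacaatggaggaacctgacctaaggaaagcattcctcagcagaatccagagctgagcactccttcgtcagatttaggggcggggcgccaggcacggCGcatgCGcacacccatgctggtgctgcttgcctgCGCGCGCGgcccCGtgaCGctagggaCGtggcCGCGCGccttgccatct

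The covered sites ran from 102 bases upstream to 119 downstream of the gene start in Arap1, from 576 upstream to 333 downstream in Dstn, and from 34 upstream to 239 downstream in Lyplal1. The Lyplal1 amplicon thus lay almost wholly past the start, and the Dstn amplicon reached well to both sides. In mm9 the sites covered on chromosome 7 were 108496480 to 108496726 (Arap1, 33 sites) and on chromosome 2 were 143740490 to 143741399 (Dstn, 78 sites). On chromosome 1 they were 187940948 to 187941221 (Lyplal1, 28 sites) and on chromosome 13 they were 49282886 to 49283487 (Ninj1, 55 sites). Exons and introns of these sites were not looked up here.

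The first comparison asked whether the promoter island of the targeted gene carried more methylation in knockout kidney than in wild-type kidney. The Lyplal1 island did so across almost its whole length. Its level was 16.6% in the knockout library and 7.90% in the wild-type library, a difference of 8.71 percentage points with a counting margin of 0.285. A site was called where the libraries differed by at least 5 points, and 26 of 28 sites were higher in the knockout (92.9%) and 0 lower (0%). In liver, the other tissue of this line, 10 of 28 sites were higher by that much (35.7%).

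The Lyplal1 difference was present at every site that was low in wild type. At the 23 sites below 5% in wild-type kidney, the knockout had 7.37% to 16.6% and the wild type 0.882% to 2.15%, so the ranges did not overlap. The means were 10.2% and 1.27%, or 8.06-fold higher in the knockout. Choosing sites by their wild-type level capped the wild-type range alone. The 12 sites where the kidney levels of both genotypes averaged below 5% had means of 8.31% and 1.08%. At each of the 23 sites the 95% Wilson intervals of the libraries lay apart. Differences per site ran from 6.08 to 14.9 points, and every one of these sites had a higher knockout level in kidney than in liver. The largest of these differences was at 187941005, 182 bases downstream of the start, with 16.6% (15.5 to 17.7) in knockout kidney and 1.61% (1.47 to 1.76) in wild-type kidney. The same site had 8.32% in knockout liver and 0.585% in wild-type liver.

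Methylation in the Lyplal1 knockout was graded along the gene. Sites below 5% in wild type formed 3 stretches separated by higher sites, and the stretch farthest into the gene came first in the file's coordinates. In that stretch, 187940948 to 187941005, the knockout kidney mean was 13.6% over 6 sites. The middle stretch, 187941041 to 187941110, had 10.2% over 7 sites. The stretch next to the gene start, 187941150 to 187941186, had 8.24% over 10 sites. Wild-type kidney had 1.72%, 1.15% and 1.08% in the same order. Knockout liver ran in the same order at lower levels, with 7.30%, 4.99% and 4.07%. Neighbouring sites share reads, so these are descriptions of 2 libraries in each tissue.

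**Figure D1:**
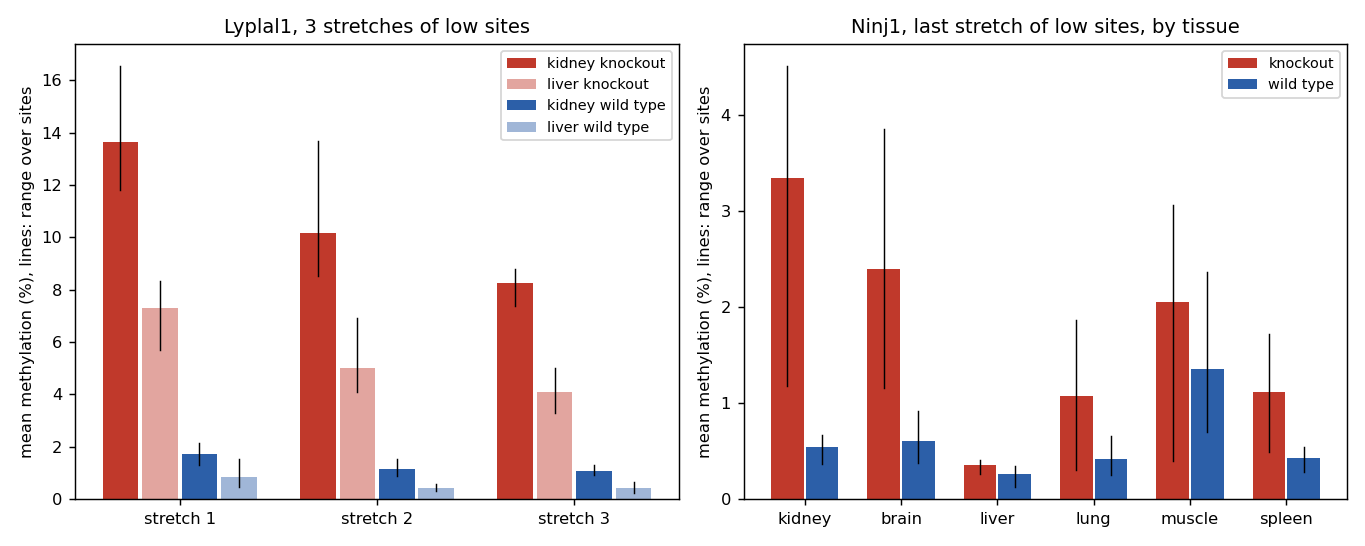
Mean methylation (%) of stretches of CpG sites below 5% in wild-type kidney, with lines for the range over sites and 1 library per bar. Left, in Lyplal1 the knockout kidney bars fall from 13.6% to 8.24% toward the gene start and stand above knockout liver (7.30% to 4.07%) and both wild types. Right, in the last stretch of Ninj1 the kidney knockout bar (3.35%) is the highest of 6 tissues.

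The 5 remaining Lyplal1 sites were already between 17.2% and 68.7% in wild-type kidney. Site 187941131, 56 bases downstream of the start, had 43.8% (42.3 to 45.3) in the knockout and 22.3% (22.0 to 22.7) in wild type. Liver had 36.4% and 26.9% at this site. Site 187941019 was the single site lower in the knockout, with 20.4% against 21.0% and overlapping intervals, and its neighbour 187941010 had 20.7% against 17.2%. The pair upstream of the start, 187941215 and 187941221, had 76.6% and 68.1% in the knockout and 68.7% and 62.6% in wild type.

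The Arap1 island was nearly unmethylated in both genotypes, with the knockout slightly higher at most sites. Its level was 0.759% in the knockout and 0.532% in wild type, a difference of 0.226 points with a counting margin of 0.738. That margin includes sites of fewer than 100 reads, whose counting error is the largest. At the 31 sites with at least 100 reads in both libraries the difference was 0.241 points. Each of these had at least 53208 knockout and 68216 wild-type reads. With sites of fewer than 10 reads included the difference was -1.04 points. No site differed by 5 points in either direction (0% each). The knockout was higher at 29 of the 31 sites with at least 100 reads in both libraries, and the intervals lay apart at 27 of these. Knockout levels at the 31 sites were 0.420% to 2.32% and wild-type levels 0.296% to 2.88%. The shift was alike on both sides of the gene start, with 0.769% against 0.528% over 12 upstream sites and 0.832% against 0.592% over 19 downstream sites. Incomplete conversion was not measured, so its part in so small a shift between 2 libraries was not tested. Site 108496701 had 1.201% (1.12 to 1.29) against 0.567% (0.526 to 0.612), and site 108496588 had 0.880% against 0.384%. The exceptions were 108496592, with 2.32% against 2.88%, and 108496581, with 1.40% against 1.72%. Knockout kidney was low among Arap1 tissues, below all 4 others at 18 of the 31 sites and above all 4 at 0 sites. Knockout lung was close to it, with a mean of 0.841% over these sites against 0.808% in kidney. Knockout brain had 1.27%, heart 1.39% and liver 2.31%, each from 1 library.

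The Dstn island had nearly the same level in both genotypes, apart from a few sites. The means were 3.87% in the knockout and 3.79% in wild type, a difference of 0.0775 points with a counting margin of 0.0421. Including sites of fewer than 10 reads turned it to -1.06 points. Of 78 sites, 1 was higher by at least 5 points (1.28%) and 1 lower (1.28%). The knockout was higher at 45 sites and lower at 33. At the 70 sites below 5% in wild-type kidney the means were 0.425% and 0.415%, with knockout values of 0.0709% to 1.10% and wild-type values of 0.0873% to 1.30%. Upstream of the start the knockout had 0.361% and wild type 0.346% over 45 of these sites, and downstream the levels were 0.541% and 0.540% over 25 sites. The intervals lay apart at 8 of the 70 sites with the knockout higher and at 10 with it lower.

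The larger Dstn differences lay at sites that were elevated in both genotypes. Site 143741033 had 31.0% in the knockout and 25.5% in wild type, and site 143740880 had 15.9% and 10.99%. In the other direction, site 143740846 had 37.1% against 45.2% and site 143740674 had 24.0% against 27.3%. At all 4 sites the kidney value of each genotype lay within the range of the other 5 tissues. Within tissues, the knockout minus wild-type difference at 143740846 was -8.09 points in kidney and -7.61 to -1.40 in the other 5, lower in all 6. At 143740880 it was 4.92 points in kidney and 0.550 to 5.98 in the others, higher in all 6. At 143741033 and 143740674 the others ran from -2.01 to 23.2 and from -2.51 to 3.79 points, in both directions.

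In Ninj1 kidney the overall levels were close and a short stretch at the end of the amplicon was higher in the knockout. The means were 9.42% and 9.07%, a difference of 0.351 points with a counting margin of 0.326. At the 54 sites with at least 100 reads in both libraries the difference was 0.152 points. Pooled over reads the difference was -0.585 points, so its direction depended on how sites were weighted. Of 55 sites, 4 were higher by at least 5 points (7.27%) and 3 lower (5.45%). One of the 4 was site 49282886, covered by fewer than 100 reads. Among the 41 deeper sites below 5% in wild-type kidney the means were 0.818% and 0.451%, with 25 sites higher in the knockout and 16 lower.

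The last stretch of low Ninj1 sites, 49283409 to 49283472, had 3.35% in knockout kidney and 0.539% in wild-type kidney over 4 sites. The 4 knockout values were 4.51%, 3.93%, 3.77% and 1.17%, and the wild-type values 0.520%, 0.610%, 0.668% and 0.3596%. Over the other 5 tissues the knockout mean of this stretch was 0.357% to 2.39% and the wild-type mean 0.255% to 1.35%. Kidney thus had the highest knockout value of the 6 tissues, and at each of the 4 sites it exceeded the other tissues. The lowest of the kidney values, 1.17%, was close to the lowest knockout brain value of the stretch, 1.155%. The 6 stretches before it differed by -0.0511 to 0.590 points between the kidney genotypes. In the nearest of these, 49283326 to 49283379, spleen stood higher than kidney. It had 3.01% in the knockout and 0.492% in wild type, against 0.941% and 0.352% in kidney.

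Ninj1 also held sites where the genotypes stood apart in kidney and in every other tissue measured. Site 49282938 had 0.267% (0.198 to 0.3597) in knockout kidney and 15.6% (14.99 to 16.3) in wild-type kidney. Knockouts of the other 5 tissues had 0.212% to 0.487% and their wild types 14.6% to 17.3%, so the genotypes did not overlap. Site 49283304 had 19.2% against 29.2% in kidney, with 11.3% to 21.8% in the other knockouts and 25.5% to 27.4% in the other wild types. Site 49283393 went the other way, with 19.6% against 9.43% in kidney, 16.4% to 31.9% in the other knockouts and 11.1% to 12.2% in the other wild types. Site 49283097 had 31.7% against 24.0% in kidney, and there the difference within the other tissues ran from -3.98 to 15.3 points.

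**Figure D2:**
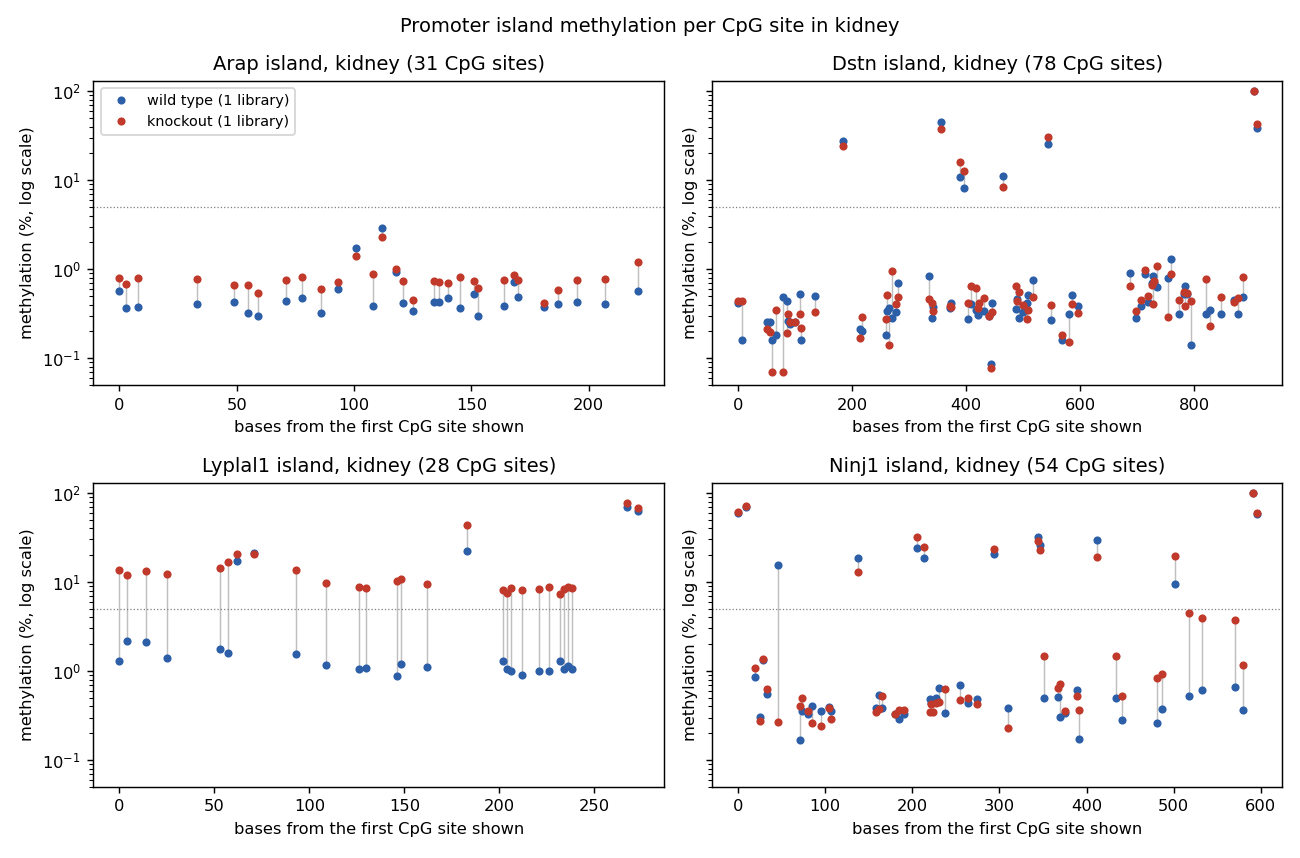
Methylation (%, log scale) at each CpG site with at least 100 reads in both kidney libraries, against distance in bases from the first such site, with 1 library per genotype and a dotted line at 5%. All 23 low Lyplal1 sites lie higher in the knockout (7.37% to 16.6%) than in wild type (0.882% to 2.15%), whereas Arap1, labelled Arap, and Dstn stay near or below 1% at most sites.

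Sites at or above 5% in wild-type kidney, called elevated here, numbered 26 among the sites with at least 100 reads, beside 165 others. They had 8.26% to 99.8% in wild-type kidney, and Arap1 had 0 of them. Of these 26 sites, 16 (61.5%) lay at an end of the covered stretch or beside a change in coverage of at least 1.2-fold, compared with 45 of the others (27.3%). The part of amplification or alignment in these levels was not tested. Elevated sites gave 7 calls with the knockout higher and 4 with it lower, while the 23 calls at the other sites were all in Lyplal1 and all higher.

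Over the 4 lines the kidney difference was 2.34 ± 4.25 points (SD, n = 4 lines), positive in 4 of 4. It was positive in 2 of 4 with no coverage minimum and in 3 of 4 with pooled reads (exact p = 0.625 in each). The two-sided exact sign-flip permutation test gave p = 0.125, the smallest value that 4 pairs allow. The size rested on Lyplal1. Without it the mean was 0.218 ± 0.137 points (exact p = 0.250, again the smallest possible), with 3 of 3 lines positive.

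The GC box letters GGGCGG, which the transcription factor Sp1 is known to bind, were searched on both strands of the placed windows. The letters occur in 35.7% of 32851 RefSeq promoter windows of the same length. Arap1 held 4 matches and Dstn 4, each at a measured CG, and Lyplal1 held 1, 51 bases upstream of the start and outside the measured sites. In Arap1 the knockout and wild-type levels at the matches were 0.665% and 0.425% (53 bases upstream), 0.817% and 0.478% (24 upstream), 0.880% and 0.384% (6 downstream) and 2.32% and 2.88% (10 downstream). In Dstn the match 186 bases upstream lay at the elevated site 143740880, and the other 3 had 0.320% to 0.645% in the knockout and 0.341% to 0.410% in wild type. A match is a description of letters and not of binding.

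LacZ was methylated far above the islands in all 4 kidney libraries, at levels that differed between lines. Over the 141 reporter sites covered in every library of these lines, Dstn kidney had 68.8%, Lyplal1 58.3%, Ninj1 54.2% and Arap1 33.1%. The island differences in the same order were 0.0775, 8.71, 0.351 and 0.226 points. With 4 lines no correlation was computed. Neighbours in this order differed by more than the counting error, but each level is 1 library.

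The lines also differed in the shape of methylation along LacZ. Without 14 near-constant sites, described below, the other 127 covered sites fell into 6 runs of reporter positions between them, 162 to 405, 491 to 710, 949 to 1213, 1823 to 2053, 2213 to 2412 and 2656 to 2868. Dstn kidney was high and then dropped at the end, with 90.7%, 64.5%, 94.0%, 93.8%, 62.5% and 15.1% in these runs. Arap1 kidney had 49.5% in the first run, 35.5% in the second and 23.0% to 29.0% in the other 4. Lyplal1 kidney had 50.5% to 74.6% and Ninj1 kidney 44.8% to 65.2%, without such a drop. The low last run of Dstn was shared by its other tissues, which had 15.3% to 20.1%, so kidney was the lowest of 6 there by a small margin.

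Sites within a run were even in some kidneys and uneven in others. The SD over sites within a run averaged 3.62 points in Dstn and 4.36 in Lyplal1, but 12.4 in Arap1 and 12.9 in Ninj1. In Dstn kidney it was 0.824 to 1.38 points in the runs at 90.7% to 94.0% and 5.27 to 7.30 in the others. The average also varied between tissues of a line, so lines overlapped. Other tissues had 4.74 to 17.9 points in Arap1, 2.97 to 7.64 in Dstn, 2.93 in Lyplal1 and 5.98 to 12.4 in Ninj1. The pattern of high and low sites within runs was most alike between Arap1 and Ninj1, with a Pearson r of 0.906 across 127 sites, against 0.386 to 0.631 for the other 5 pairs of lines. These sites share reads and reference sequence and are not independent. Arap1 kidney kept the pattern of the other 4 Arap1 tissues (r of 0.856 to 0.9495), as Ninj1 kidney did to a variable degree with its own 5 (0.683 to 0.940). For Dstn kidney r was 0.549 to 0.932 with its other 5 tissues, and for Lyplal1 kidney it was 0.490 with liver.

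**Figure D3:**
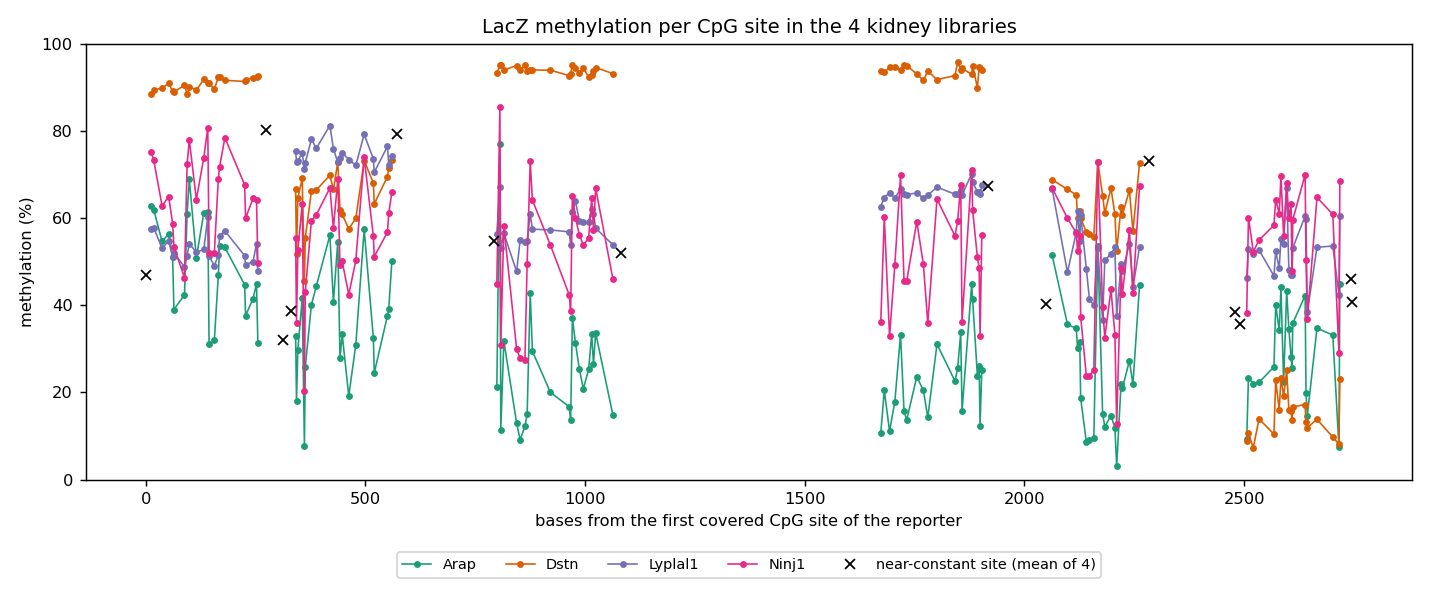
Methylation (%) at each reporter CpG site in the 4 kidney LacZ libraries, against distance in bases from the first covered site; lines join sites of a run and crosses mark the mean of near-constant sites. Dstn averages 90.7% to 94.0% in 3 of the runs and falls to 15.1% in the last, and Arap1 (labelled Arap) and Ninj1 zigzag in the same places.

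Among the LacZ sites, position 956 had the highest mean over the 4 kidneys at 81.2% ± 11.9 (SD, n = 4), followed by 424 at 80.2% and 722 at 79.4%. Positions 424 and 722 belonged to 14 near-constant sites, whose SD over the 19 LacZ libraries of these lines was 0.916 to 5.85 points, while the other 127 sites had SDs of 10.1 to 34.7. The lowest means were at 2866 (21.7% ± 17.0), 2794 (25.5% ± 14.1) and 2656 (25.7% ± 19.4), all in the run where Dstn was low. At 2866 the 4 kidneys had 7.41% (Arap1), 8.16% (Dstn), 42.4% (Lyplal1) and 29.0% (Ninj1).

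The second comparison set kidney beside the other tissues of the same lines, which number 4 for Arap1, 5 for Dstn, 1 for Lyplal1 and 5 for Ninj1. LacZ was higher in kidney than the mean of the other tissues in 3 of 4 lines. Kidney exceeded them by 18.99 points in Lyplal1, 16.6 in Ninj1 and 8.95 in Dstn, and fell by 4.75 below them in Arap1. The direction in Arap1 rested on liver, without which kidney was 5.50 points above the other 3. Set against the median of the other tissues, kidney was 0.535 points higher in Arap1 and -1.20 points, or lower, in Dstn. In Ninj1 the kidney level of 54.2% was above all the others, which had 25.8% to 45.2%. In Arap1 the kidney level of 33.1% was the middle of 5, with 17.6% to 68.6% in the others, and in Dstn the level of 68.8% ranked 4 of 6, with 35.6% to 73.0% in the others. The mean difference was 9.94 ± 10.7 points (SD, n = 4 lines), and the exact permutation of tissues within lines gave p = 0.244 over 360 arrangements, adjusted p = 0.933 over 4 measures. The smallest p this test allows is 0.00278.

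The kidney excess of LacZ methylation over the mean of the other tissues lay along the whole reporter in Ninj1 and Lyplal1. In Ninj1 all 6 runs were higher than that mean, by 12.5 to 24.0 points. Kidney ranked 1, 1, 2, 2, 2 and 2 of 6 tissues in these runs. In the third run, for example, lung had 66.8% and kidney 52.4%. In Lyplal1 the excess over liver was 1.71 points in the first run and 41.4 in the second, where kidney had 74.6% and liver 33.1%. In Dstn kidney was higher in the first 5 runs, by 8.14 to 23.5 points, and fell by 2.62 points below the others in the last. That excess is over a mean lowered by liver and lung, and kidney ranked 3, 4, 4, 4 and 2 of 6 in those 5 runs. Arap1 kidney was below the mean of the others in 5 of the 6 runs. In the first run kidney was above the mean of the other tissues in 4 of 4 lines, by 10.1 ± 10.01 points (SD, n = 4 lines). In the next 4 runs it was above in 3 of 4, by means of 9.54 to 17.3 points with SDs of 11.98 to 18.7. In the last run it was above in 2 of 4, by 5.59 ± 14.9 points.

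Site by site, none of the 141 LacZ sites (0%) passed an adjusted p of 0.05 for kidney against the other tissues in edgeR's quasi-likelihood test with line as a term. The number with an unadjusted p under 0.05 was also 0, and limma on logit methylation gave 0 and 0. The sites with the smallest p were 538, 628, 587, 527 and 668, all in the second run, with an adjusted p of 0.868 in edgeR. At 538 kidney exceeded the other tissues by 21.3 points on average over the lines, higher in 4 of 4, and at 628 by 18.2 points, higher in 4 of 4. At 587 and 527 kidney was higher by 18.9 and 19.7 points in 4 of 4 lines, and at 668 by 18.6 points in 3 of 4.

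None of the 3 island measures passed the test of kidney against the other tissues. The knockout island level was 1.02 ± 2.54 points higher in kidney (exact permutation p = 0.828), kidney minus the other tissues was -0.0111 points for the wild-type island level (p = 0.933 by the same exact test), and the knockout minus wild-type difference 1.03 ± 2.01 points higher (exact p = 0.481), each with an adjusted p of 0.933. Without Lyplal1 the knockout island value was -0.244 points and the value for the difference 0.0266 points (exact p = 0.961). In Lyplal1 the kidney difference of 8.71 points exceeded the 4.68 of liver. As a ratio at the low sites the order was the other way, 8.06-fold in kidney and 9.99-fold in liver, with 0.520% in wild-type liver and 1.27% in wild-type kidney. In Ninj1 the kidney difference of 0.351 lay within the -0.473 to 0.488 of the other tissues. Without elevated sites it was the highest of 6, at 0.622 against -0.0952 to 0.616. That value includes the thinly read site 49282886, with 11.1% in knockout and 0% in wild-type kidney. The other tissues differed by -5 to 2.78 points there. At the 41 deeper sites kidney had 0.366 points, so the top rank rested on that site. Dstn kidney, at 0.0775, was below the 0.125 to 0.601 of the others, but without elevated sites it ranked 3 of 6, at 0.0103 within -0.0940 to 0.332. At sites covered in every Arap1 library the kidney difference was 0.241, within -0.863 to 0.721.

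**Figure D4:**
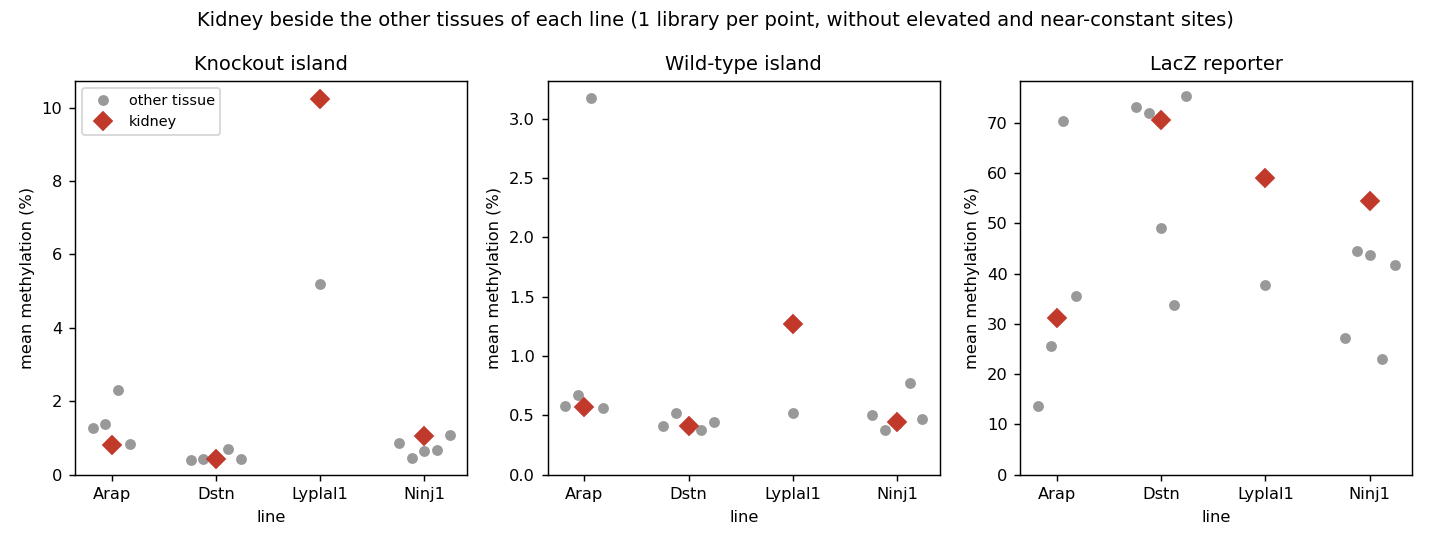
Mean methylation (%) of the knockout island, the wild-type island and LacZ in each line, with red diamonds for kidney and grey circles for the other tissues, 1 library per point. Without elevated sites the Lyplal1 kidney knockout lies at 10.2% against 5.19% in liver, while the other 3 lines lie at 1.06% or less in kidney. Kidney LacZ without near-constant sites (31.2% to 70.5%) is the highest point of its line in Lyplal1 and Ninj1.

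Whether the genotype difference in kidney was unlike that of the other tissues was tested per island site as an interaction in edgeR's quasi-likelihood model, in Arap1, Dstn and Ninj1. Lyplal1 left no residual degree of freedom and was not tested. Of 164 sites, 0 (0%) had an adjusted p under 0.05, and 3 had an unadjusted p under 0.05. limma gave 0 and 4. The smallest p values were at Ninj1 49283147, where the kidney difference was -0.225 points and the others 0.227 to 1.63, and at Dstn 143740569, where it was -0.411 points and the others -0.158 to 0.298. Next came Ninj1 49283409 in the stretch described above, with 3.99 points in kidney and 0.115 to 2.93 in the others. Dstn 143740978, with 0.291 points in kidney, and Ninj1 49283424, with 3.32 points, followed. All 5 had an adjusted p of 0.999 in edgeR.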

How the data were processed

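Genomic DNA was treated with bisulfite, which turns unmethylated cytosine into uracil, and island and LacZ amplicons were pooled and sequenced, per the labels' protocols. Bismark, Bowtie2 and the mm9 build are listed in the submitters' processing notes, with no versions. For each CpG site the deposited files give the percent of methylated calls and, as raw counts, the methylated and the unmethylated calls. That percent matched the counts to within 5.68e-14. Removal of duplicate reads is not given in the sources used here, and non-CpG cytosines were not listed, so incomplete conversion was not measured.

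Libraries were grouped by title. Island rows within 2000 bp of the line's median position were kept. In kidney, the 52 rows elsewhere held at most 0.00137% of a library's calls. Sites needed at least 10 reads. The labels carry no replicate numbers, so nothing was paired but line and tissue. Levels over lines were compared by an exact sign-flip permutation test, and kidney with other tissues by exact permutation within lines, with Benjamini-Hochberg adjustment over 4 measures. Sites were tested with edgeR 4.0.16 (R 4.3.3), after tests on simulated data, and with limma 3.58.1 on logit methylation (offset of 0.5 calls) as an alternative. Other alternatives were coverage minimums of none and 100 reads, pooled reads, the median over sites, other site sets, calls at 2 and 10 points, no line term, and leaving out each line or tissue. Python 3.11.15, numpy 2.4.6, pandas 2.3.3 and scipy 1.17.1 gave the other values.

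Named sites were the 2 highest and 2 lowest differences of each kidney island among sites with at least 100 reads, the 3 highest and 3 lowest LacZ means, and the 5 smallest p of each site test. Other sites were named after their values were seen, as were the stretches, runs and near-constant sites (SD below 7 points). The lines, tissue, lists and tests were chosen with earlier results of these data known.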

Additional observations from a re-analysis of the deposited data

Results flagged for a closer look

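In 16 groups tested for a sample far from the others, of which chance flags about 5%, 3 values stood apart, in groups of 4, 5 and 6 values. Among the 4 lines, the kidney island difference of Lyplal1 (8.71 points) stood apart from the other 3. Among the Dstn tissues, the island difference of lung (0.601 points) stood apart from kidney and the rest. In Arap1, the wild-type island level of liver (3.18%) stood apart from the other 4 tissues, and it enters the mean with which kidney was compared.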

How the results depend on the processing

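With no coverage minimum the kidney island difference was -1.04 points in Arap1, -1.06 in Dstn, 5.82 in Lyplal1 and 1.62 in Ninj1. Pooled over reads it was 0.202 in Dstn and -0.585 in Ninj1. It was 0.0103 in Dstn without elevated sites, and also without sites whose kidney levels average 5% or more, which left 7.23 in Lyplal1. Calls at 2 points were 7 in Dstn and 13 in Ninj1, and at 10 points 0 in Dstn, 7 in Lyplal1 and 4 in Ninj1. LacZ levels with all covered sites were 31.2% in Arap1, 65.7% in Dstn, 57.4% in Lyplal1 and 52.7% in Ninj1. Pooled, they were 31.6%, 66.7%, 58.5% and 53.3%, as medians 31.9%, 73.0%, 56.7% and 55.9%, and without near-constant sites 31.2%, 70.5%, 58.9% and 54.4%, in the same order. The order of lines was the same in each. The cause of these changes was not tested. Kidney minus other tissues in wild-type islands became 0.0923 pooled and 0.0925 as a median. Leaving out each line gave -0.270 (without Lyplal1) to 0.212 (without Arap1) for wild-type islands and -0.244 (without Lyplal1) to 1.57 (without Arap1) for knockout islands, and in LacZ, per line and added after seeing the data, leaving out each other Arap1 tissue gave kidney values of -11.5 (without brain) to 5.50 (without liver). Both site tests gave 0 adjusted calls under every alternative run, with up to 7 unadjusted ones for LacZ without Arap1. The elevated-site alternative for the tissue comparison was chosen after seeing the data and gave 11.1 points for LacZ (exact p = 0.244). With 1 library per genotype, kidney differences within a line remain untested at any depth.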
